A study of Mus musculus with 6 samples.

Results

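The chemokine gene Cxcl12 and the gene of its receptor, Cxcr4, were followed in whole mouse embryos lacking Fzd7, with or without the additional loss of Fzd2. The members were found by gene symbol. Of 34945 probe sets that the platform annotation gives a single symbol, 3 belonged to Cxcl12 (1417574_at, 1448823_at and 1439084_at) and 1 to Cxcr4 (1448710_at), so the pair made up 2 of 18193 genes. Cxcl12 was chosen by its lower array values in the double knockout, which were already known, and Cxcr4 was taken with it as its receptor. The difference between the groups is therefore given for both genes as a description, without a test. RNA came from embryos at embryonic day 8.5 on a mixed C57BL6/129 background. The 3 single knockout samples carried wild-type Fz2 and no Fz7 (Fz2+/+; Fz7-/-). The 3 double knockout samples lacked both receptors (Fz2-/-; Fz7-/-), so loss of Fz7 was shared by every sample, and wild-type embryos were not analysed here. Each sample is labelled as mixed in gender. The labels do not say how many embryos went into a sample, or whether replicates came from separate litters. With 3 arrays per group, precision is limited throughout.

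Chemokines are small secreted proteins that bind to receptors coupled to G proteins and direct the movement of cells along gradients. Cxcl12, also called stromal cell-derived factor 1, is made mainly by mesenchymal cells and acts through Cxcr4. In the embryo this pair guides germ cells, blood precursors, vessel cells and migrating neurons and muscle precursors, and mice lacking either gene die around birth with defects of blood formation, heart and brain. A further receptor, Ackr3 (formerly Cxcr7), binds Cxcl12 and removes it from the surroundings. Fzd2 and Fzd7 encode Frizzled receptors for Wnt ligands, which act in part through beta-catenin and the DNA-binding factors of the TCF/LEF family.

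The sequences upstream of both genes are shown because the ligand gene is the one that differed and because TCF/LEF factors act downstream of Frizzled receptors. They were read from RefSeq (GRCm38.p6), where both members had 1 entry, and each gives the 250 bases before the start of the gene, 5′ to 3′ on the strand of the gene. The Cxcl12 window is chr6:117168285-117168534 on the plus strand and the Cxcr4 window is chr1:128592300-128592549 on the minus strand. Capitals mark matches to a TCF/LEF word of 7 letters (NNCAAAG, where each N may be adenine or thymine) or to a hypoxia-inducible factor (HIF) word of 5 letters (NCGTG, where N may be adenine or guanine), searched on both strands.
Cxcl12: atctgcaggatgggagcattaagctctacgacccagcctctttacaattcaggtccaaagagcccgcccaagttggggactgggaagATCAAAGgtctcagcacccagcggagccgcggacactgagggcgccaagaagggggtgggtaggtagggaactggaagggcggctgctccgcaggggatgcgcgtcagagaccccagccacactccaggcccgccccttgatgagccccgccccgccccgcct
Cxcr4: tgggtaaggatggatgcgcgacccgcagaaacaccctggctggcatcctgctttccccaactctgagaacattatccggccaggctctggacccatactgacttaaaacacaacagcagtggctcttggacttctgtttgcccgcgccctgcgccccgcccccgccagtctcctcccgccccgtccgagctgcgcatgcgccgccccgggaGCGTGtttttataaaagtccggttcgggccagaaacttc
The Cxcl12 window held 1 TCF/LEF match, ATCAAAG, which begins 163 bases before the start of the gene, and 0 HIF matches. The Cxcr4 window held 0 TCF/LEF matches and 1 HIF match, GCGTG, which begins 39 bases before the start. Matches of this kind are common. Of 32851 windows of the same length, 14.8% held a TCF/LEF match and 38.6% a HIF match. CG dinucleotides numbered 14 in the Cxcl12 window and 19 in the Cxcr4 window, against a median of 6 over all windows. These matches describe the letters only and were not tested for binding.

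Array values are on the log2 scale, on which a difference of 1 is a 2-fold change. Fzd2 separated the groups as labelled. Its brightest probe set (1418532_at) read 9.86 to 10.01 in the single knockout and 7.30 to 7.69 in the double knockout. The array of double knockout replicate 1 was unlike the rest. Its correlations with them across genes were 0.987 to 0.990, while those among the other 5 were 0.997 to 0.998. In it 479 genes were over 1 log2 unit away from the average of the remaining arrays, and in any other array 18 to 37 were. Values of Cxcl12, Cxcr4 and Ackr3 and counts of tissue markers are given with and without it. As whole embryos were measured, fewer cells of a type and less RNA per cell cannot be told apart.

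Cxcl12 was lower in every double knockout array than in any single knockout array on its brightest probe set. In the order of their replicate numbers, the single knockout arrays read 9.17, 9.41 and 9.47 on 1417574_at and the double knockout arrays 8.64, 8.66 and 8.44. The groups were separated by a gap of 0.51, wider than the spread within either group (0.30 and 0.23). The group means were 9.35 ± 0.16 and 8.58 ± 0.13 (SD, n = 3), a log2 difference of -0.77, which places the double knockout at 58.7% of the single knockout level. The individual double knockout arrays lay between 53.1% and 62.2% of that level. Of the variance of this probe set over the 6 arrays, 91.6% lay between the groups.

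The probe set 1448823_at gave the same picture. It read 8.41, 8.42 and 8.52 in the single knockout and 7.89, 7.96 and 7.73 in the double knockout, again without overlap and with a gap of 0.45. Its group means were 8.45 ± 0.06 and 7.86 ± 0.12 (SD, n = 3), a log2 difference of -0.59, or 66.5% of the single knockout level. Double knockout replicate 3 was the lowest array on both probe sets and single knockout replicate 3 the highest. The 2 probe sets followed each other over the 6 arrays (Pearson r = 0.984), as values of the same samples on the same arrays.

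The third Cxcl12 probe set, 1439084_at, did not show the difference. It read 4.46, 4.39 and 4.48 in the single knockout and 4.55, 4.44 and 4.25 in the double knockout. The groups overlapped, and the difference of -0.036 was smaller than the SD of either group (0.05 and 0.15). All 6 values were below the array medians of 5.794 to 5.816, in a range where the summary of probe values compresses differences. The sources used here do not say where its target lies in the Cxcl12 transcript. Averaging the 3 probe sets gave a Cxcl12 difference of -0.46 instead of -0.77.

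The Cxcl12 difference stands beside that of all features as follows. Groups did not overlap in 2 of 3 Cxcl12 probe sets, with the double knockout lower. The same held for 6.12% of all single-symbol probe sets, and since the gene was chosen for this contrast nothing is read from that comparison. With each gene represented by its brightest probe set, 77 of 18193 genes, Cxcl12 included, were lower by at least as much. In the limma fit across all genes, 0.0055% of genes were called at an adjusted p under 0.05. That is 1 gene, Fzd2, and neither Cxcl12 nor Cxcr4 was among the calls. Without adjustment, 902 genes (4.96%) had a limma p under 0.05.

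Cxcl12 did not set double knockout replicate 1 apart. Relative to the mean of the single knockout, 1417574_at differed by -0.71 in double knockout replicate 1, by -0.69 in replicate 2 and by -0.91 in replicate 3. Without replicate 1 the group difference was -0.80 on this probe set and -0.60 on 1448823_at. Leaving out each of the 6 arrays in turn gave -0.86 to -0.70 for 1417574_at.

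**Figure D1:**
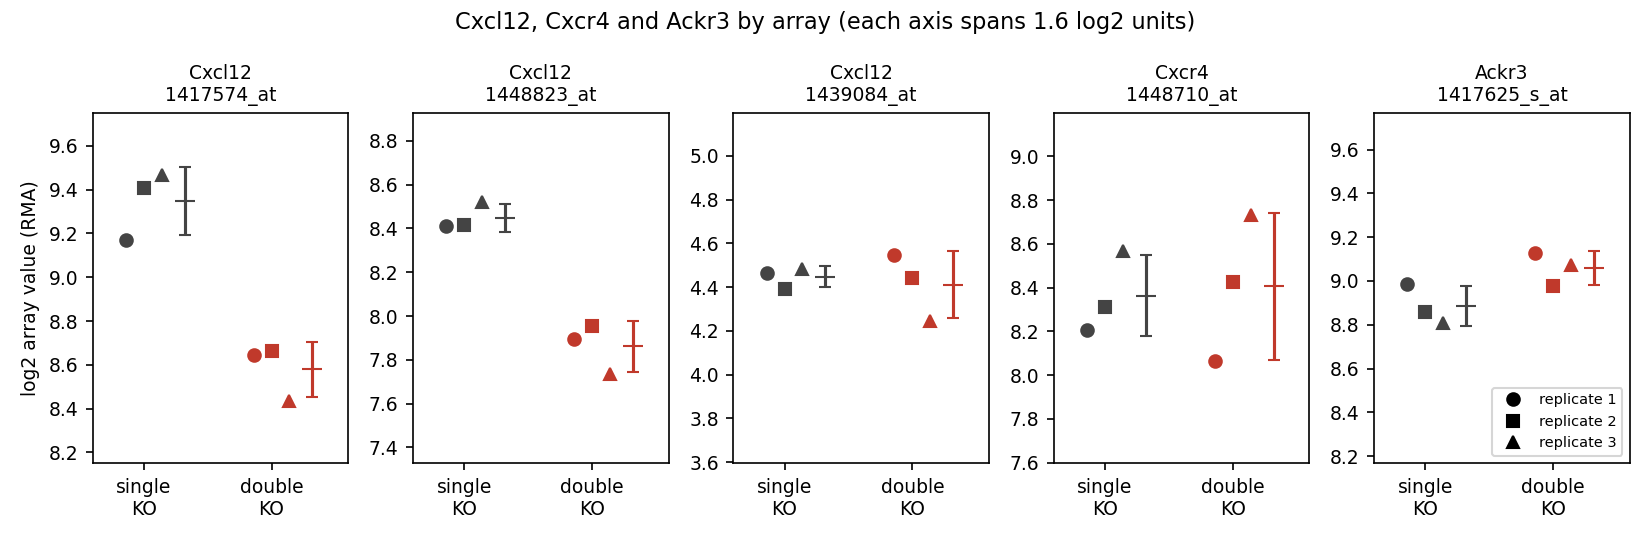
Log2 array values (y axis, RMA) of the 3 Cxcl12 probe sets, the Cxcr4 probe set and the Ackr3 probe set in single knockout (grey) and double knockout (red) arrays, with 1 symbol per replicate and the mean ± SD (n = 3) beside them. The groups are apart for 1417574_at and 1448823_at, with gaps of 0.51 and 0.45, and overlap in the other panels.

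Cxcr4, the receptor through which Cxcl12 directs migration, overlapped between the groups. Its probe set read 8.21, 8.31 and 8.57 in the single knockout and 8.06, 8.43 and 8.73 in the double knockout, in the order of replicate numbers. The lowest and the highest of the 6 values were both double knockout arrays. The means were 8.36 ± 0.19 and 8.41 ± 0.34 (SD, n = 3), a log2 difference of 0.044 with a standard error of 0.18 in the fit across probe sets. Only 0.984% of its variance over the 6 arrays lay between the groups. Double knockout replicate 1 was the lowest array, and without it the difference was 0.22. The direction was not settled, since leaving out single knockout replicate 1 gave -0.034 and leaving out double knockout replicate 3 gave -0.12. With 3 arrays per group, a Cxcr4 difference of this size was not resolved.

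Ackr3, the scavenging receptor for Cxcl12, had higher values in the double knockout that touched those of the single knockout. Its probe set (1417625_s_at) read 8.99, 8.86 and 8.81 in the single knockout and 9.13, 8.98 and 9.07 in the double knockout, so that only double knockout replicate 2 lay below a single knockout array, by 0.011. Ackr3 differed by 0.17 (SE 0.07, n = 3 per group) and did not pass (limma adjusted p = 0.872 over 18193 genes). Without double knockout replicate 1 the difference was 0.14. Across the 14 alternatives it ran from 0.14 to 0.23, with adjusted p from 0.731 to 1.00.

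The list around the pathway held intracellular steps downstream of Cxcr4 and also secreted, surface and matrix genes. It had 35 genes, Ackr3 among them and without the pair itself. Of these, 32 were measured and the other 3 were not analysed here. None of the 32 passed in the limma fit in either direction, and 3 had an unadjusted p under 0.05, beside 4.96% of all genes. Of the 32, 19 were lower and 13 higher, with a median difference of -0.032, beside -0.0093 for all genes. Groups did not overlap for 6 of the 32 (18.8%), 3 in each direction, beside 11.4% of all genes.

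Among the genes that end receptor signalling, Arrb1, a beta-arrestin that uncouples receptors from G proteins, read 8.31, 8.33 and 8.23 in the single knockout and 7.99 to 8.13 in the double knockout. It differed by -0.25 (SE 0.06; limma adjusted p = 0.872), without overlap, and by -0.22 without double knockout replicate 1. Grk3, a kinase that phosphorylates activated receptors, read 7.62, 7.63 and 7.62 against 7.70, 7.91 and 7.84, and differed by 0.19 (SE 0.07; limma adjusted p = 0.872), also without overlap, and by 0.055 with its 3 probe sets averaged. Arrb1 and Grk3 thus had values on opposite sides of the single knockout. Arrb2, the other beta-arrestin, differed by -0.046 and Itch, a ubiquitin ligase that sends Cxcr4 to the lysosome, by 0.091, with overlapping groups in both cases. Without double knockout replicate 1, Arrb2 was at 0.072, on the other side of 0, and Itch at 0.0038. With its probe sets averaged, Itch was at -0.019.

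Among the genes that carry the signal, Elmo1, part of an activator of the GTPase Rac, read 8.04, 8.01 and 7.99 in the single knockout and 8.24, 8.13 and 8.16 in the double knockout. It differed by 0.16 (SE 0.05, limma adjusted p = 0.872). With its 3 probe sets averaged, Elmo1 differed by 0.014. Gnai2, an inhibitory G protein subunit used by chemokine receptors, differed by -0.063, and by 0.038 with its probe sets averaged. Rac1, the GTPase itself, differed by 0.0091, or -0.025 without double knockout replicate 1, and Cdc42, a related GTPase, by -0.032.

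Among the secreted and surface genes, Dpp4, a surface protease that inactivates Cxcl12, had the highest difference of the list at 0.38 (SE 0.34, limma adjusted p = 0.879). This value rested on a single array. Dpp4 read 8.94 in double knockout replicate 1 against 7.56 to 7.95 in the other 5 arrays, and the difference was -0.024 without it. Mif, a cytokine that also binds Cxcr4, differed by -0.044, and Cd74, its surface receptor, by 0.14, with overlapping groups in both cases.

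**Figure D2:**
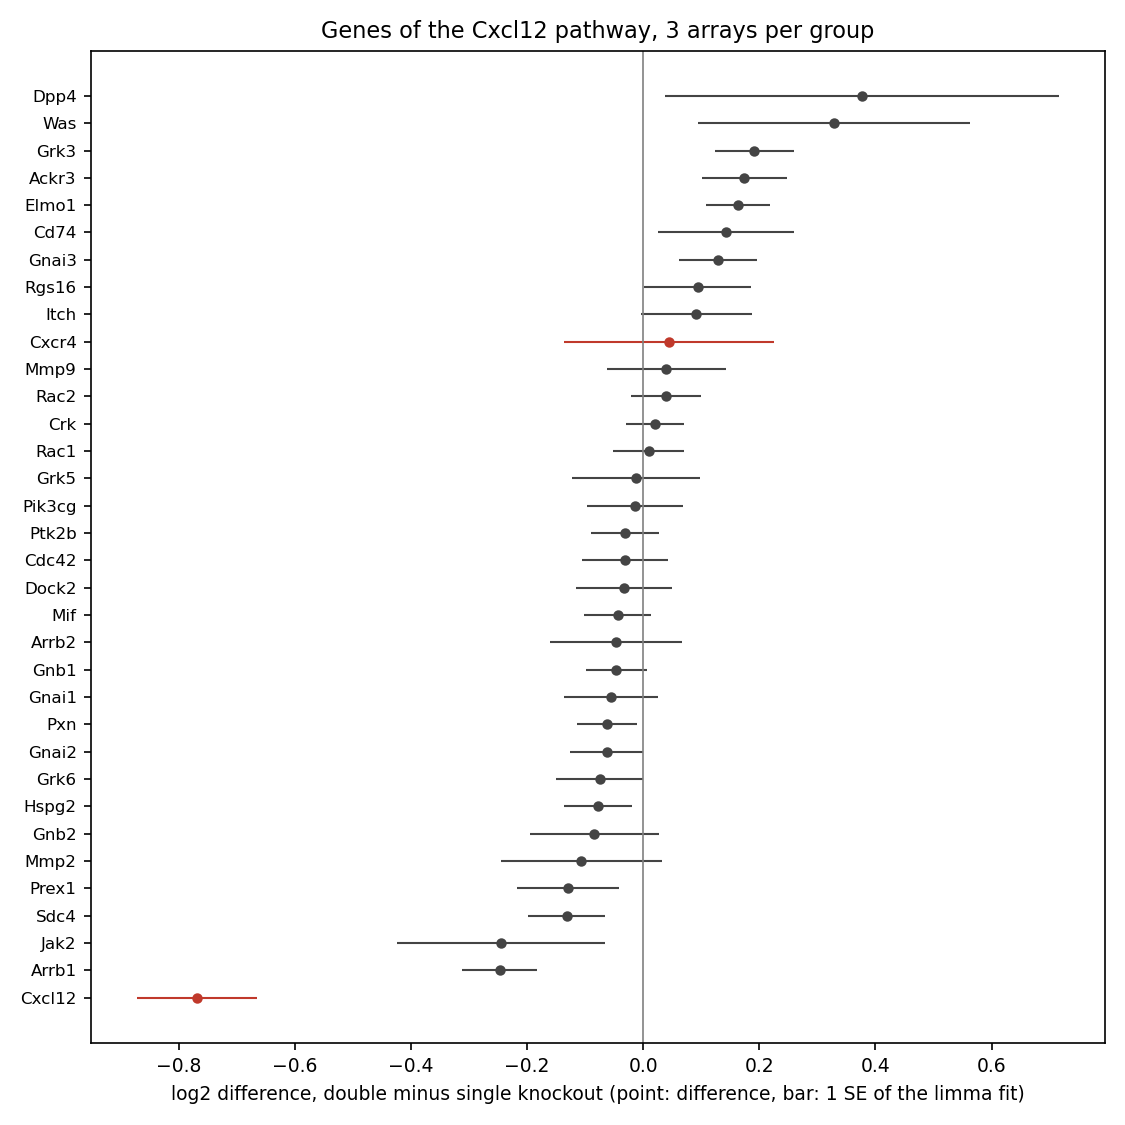
Log2 difference between double and single knockout (x axis; points, with bars of 1 SE from the limma fit, n = 3 per group) for Cxcl12 and Cxcr4 (red) and the 32 measured genes of the pathway list (grey). Cxcl12 lies at -0.77, while Cxcr4 lies at 0.044 and the listed genes between -0.25 and 0.38.

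The other chemokines of the mouse were dim in these embryos. All 32 measured ligand genes lay below the median gene in mean array value, and 0 passed in the limma fit. An unadjusted limma p under 0.05 was found for 1, beside 4.96% of all genes. Groups did not overlap for 6.25% of the ligand genes, beside 11.4% of all genes. Of the 32, 18 were lower and 14 higher, with a median difference of -0.016 and a range from -0.22 to 0.15. Ccl1, a T cell chemokine, read 4.57, 4.66 and 4.79 in the single knockout and 4.47, 4.43 and 4.48 in the double knockout, a difference of -0.21. The interferon-induced Cxcl10 and the lung chemokine Cxcl15 differed by -0.17 and -0.15, and Cxcl15 by -0.065 with its probe sets averaged. All 3 had a limma adjusted p of 0.872.

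Of 20 other chemokine receptor genes, 18 were measured, 17 of them below the median gene, and 0 passed in the limma fit. An unadjusted limma p under 0.05 was found for 4 of the 18, beside 4.96% of all genes. Groups did not overlap for 16.7% of the receptor genes, beside 11.4% of all genes. The receptor genes were split 9 to 9 with a median difference of -0.0012. Ackr1, an atypical receptor of red cells and venules that binds chemokines without signalling, read 7.27, 7.34 and 7.35 in the single knockout and 7.45, 7.46 and 7.55 in the double knockout. It was the only gene of this list above the median gene and differed by 0.17 (SE 0.06; limma adjusted p = 0.872), without overlap. Cxcr3 and Cxcr5, receptors of lymphocytes, differed by -0.19 and -0.18 at the same adjusted p and with values from 3.84 to 5.34.

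Of 10 transcription factors linked to the pair, 0 passed in the limma fit. An unadjusted limma p under 0.05 was found for 2 of the 10, beside 4.96% of all genes. Groups did not overlap for 20% of the factors, beside 11.4% of all genes. There were 4 lower and 6 higher, with a median difference of 0.029. Hif1a, the oxygen-regulated subunit of HIF, which can activate both Cxcl12 and Cxcr4, read 11.71, 11.78 and 11.79 in the single knockout and 11.97, 11.92 and 11.86 in the double knockout. It differed by 0.16 (SE 0.06; limma adjusted p = 0.872), without overlap. Sox17, a factor of endoderm and arterial endothelium, differed by 0.47 with all arrays and by 0.27 without double knockout replicate 1. Nrf1 differed by 0.15, and by 0.071 with its probe sets averaged. Sox17 and Nrf1 had a limma adjusted p of 0.872 in the main fit. Foxc1 and Foxc2, forkhead factors of mesenchyme, of which Foxc1 activates Cxcl12 in bone marrow stroma, differed by -0.14 and -0.0097 with overlapping groups. The same adjusted p of Ackr1, Hif1a and many other genes arises because the Benjamini-Hochberg method assigns neighbouring ranks a common value.

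The genes whose values over the 6 arrays were most like those of Cxcl12 were drawn from 955 named genes of at least median brightness and at least 0.5 times its SD. The highest was Fzd2 itself (Pearson r = 0.955 over 6 arrays), the gene that defines the groups. It was followed by Pdgfc, a growth factor of mesenchymal cells (0.947), Hoxa5, which patterns the neck and thorax (0.911), Postn, a matrix protein gene of mesenchyme (0.893), and Krt7, a keratin gene of simple epithelia (0.890). Pdgfc read 8.05, 8.36 and 8.28 in the single knockout and 7.70, 7.87 and 7.78 in the double knockout, a difference of -0.45. Hoxa5, Postn and Krt7 differed by -0.69, -0.95 and -0.67. In all of these genes single and double knockout arrays were apart, as in Cxcl12. This follows from choosing them by likeness to Cxcl12, so nothing is read from it. These correlations rest on 6 arrays shared by all genes and describe the values only. Without double knockout replicate 1 they were 0.933 to 0.967.

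The genes most like Cxcr4 formed another set, drawn from 2761 genes by the same rule. They were Ccdc14 (r = 0.963), Sox2, a factor of neural progenitors (0.952), Pex7 (0.948), Tubgcp2 (0.942) and Rab2b (0.939). Sox2 read 11.13, 11.23 and 11.30 in the single knockout and 10.91, 11.24 and 11.43 in the double knockout. As in Cxcr4, the groups overlapped and double knockout replicate 1 was lowest and replicate 3 highest. The group differences of these 5 genes lay between -0.043 and 0.011, and without double knockout replicate 1 the correlations were 0.894 to 0.973.

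The tissues expected in an embryo of this stage were read through 12 marker lists, since these lists moved between arrays. Each list is given as its mean log2 difference from the single knockout mean, and because a list is short, each member was also left out in turn. That check and the counts without double knockout replicate 1 were added after the values were seen. The part of any tissue in the Cxcl12 and Cxcr4 values was not tested.

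Mesenchyme is a source of Cxcl12. Allantois and mesenchyme markers (4 of 6 lower, and 5 of 6 without double knockout replicate 1) differed by -0.26, -0.083 and 0.10 in double knockout replicates 1 to 3, and single knockout arrays lay between -0.30 and 0.18. Their mean levels were 8.06 to 8.54 in the single knockout and 8.10 to 8.46 in the double knockout. The overlap rested on Tbx4, an allantois and hindlimb factor, which read 6.91 in single knockout replicate 3 and 9.43 to 10.27 in the other 5 arrays. Tbx4 was also the member farthest in the other direction, at 0.91. Without Tbx4 the other 5 markers averaged -0.11, 0.074 and 0.034 in the single knockout and -0.42, -0.26 and -0.16 in the double knockout. Every double knockout array was then lower, by a narrow margin that rested on Postn (-0.95). Postn is also among the genes picked for likeness to Cxcl12, so nothing is read from this separation. Hoxa13, Twist1 and Foxf1 overlapped between groups. Postn and Prrx1, a mesenchymal homeobox gene (-0.23), did not overlap, and Prrx1 was at -0.099 with its probe sets averaged.

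Somite markers (6 of 6 lower, with and without double knockout replicate 1) differed by -1.39, -0.28 and -0.28 in the double knockout, and single knockout arrays lay between -0.25 and 0.16. Their mean levels were 7.68 to 8.09 and 6.54 to 7.65. Neural markers (5 of 6 lower, but 2 of 6 without double knockout replicate 1) differed by -1.69, -0.30 and -0.29, with mean levels of 8.74 to 9.08 and 7.27 to 8.67. Germ cell markers (6 of 6 higher, and 5 of 6 without double knockout replicate 1) differed by 1.07, 0.19 and 0.27, with mean levels of 6.84 to 7.12 and 7.19 to 8.07. The means of these 3 lists did not overlap between groups. Taken singly, 11.4% of all genes did not overlap, and no such share was computed for means of lists. In each of the 3 lists the separation rested on single members. The groups overlapped when Meox1 or Myf5 was left out of the somite list, when En2 or Zic1 was left out of the neural list, and when Pou5f1, which also marks the epiblast, was left out of the germ cell list.

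Endothelium and gut endoderm can carry Cxcr4, and their lists overlapped between groups whichever member was left out. Endothelial markers (10 of 10 lower, but 1 of 10 without double knockout replicate 1) differed by -1.03, 0.055 and 0.070, with mean levels of 8.24 to 8.53 and 7.37 to 8.47. Cxcr4 was lowest in double knockout replicate 1, as were the endothelial, somite, neural, heart, neural crest and primitive red cell lists. Whether any of these tissues had a part in the Cxcr4 values was not tested. Gut endoderm markers (7 of 8 higher, and 5 of 8 without that array) differed by 0.48, 0.11 and 0.032, with mean levels of 8.70 to 8.84 and 8.80 to 9.25.

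Primitive red cell markers (6 of 6 lower, with and without double knockout replicate 1) were at -4.56, 0.18 and -2.36 in the double knockout. Heart markers (5 of 6 lower, but 2 of 6 without replicate 1) were at -2.28, 0.022 and -0.31 and neural crest markers (5 of 5 lower, and 4 of 5 without it) at -1.60, -0.27 and -0.11. For neural crest, single knockout arrays lay between -0.14 and 0.15, and the overlap rested on Sox10 and Foxd3. With either of them left out, every double knockout array was lower than any single knockout array, by a narrow margin. Marker means of adjacent and maternal tissue were highest in double knockout replicate 1. Visceral endoderm, placenta and decidua markers were at 2.84, 2.68 and 0.78 in that array, and between -0.27 and -0.032 in the other double knockout arrays. The decidua members did not move together. Prl8a2 read 11.14 in that array and 9.63 in single knockout replicate 3, while Dcn was lowest in that array at 6.79. Without Prl8a2 the decidua list was at 0.38, 0.10 and 0.19 in the double knockout. Single knockout arrays then lay between -0.12 and 0.097, so the groups no longer overlapped. Of the 4 genes left, Prl3c1 read only 3.51 to 3.88 outside double knockout replicate 1, and Hand2 read 9.91 to 10.28 in all arrays. Whether these genes were read from decidua was not tested, so this separation is not taken as a maternal signal. No marker can read 0 on this scale, so absence of a tissue cannot be read from it. Placenta markers had mean levels of 3.80 to 4.15 in the single knockout, below the array medians. The mean of all genes was between -0.023 and 0.017 in every array.

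**Figure D3:**
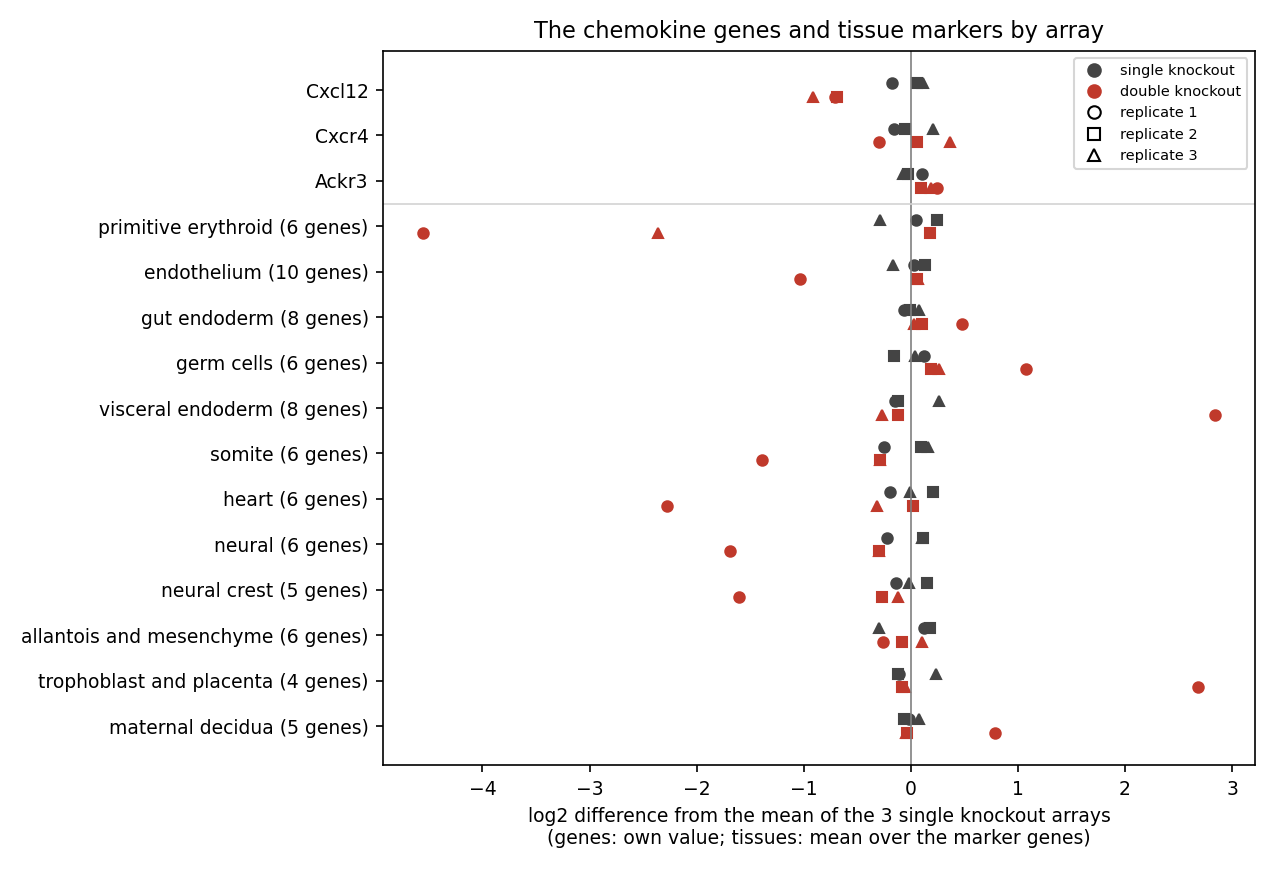
Log2 difference of each array from the mean of the 3 single knockout arrays (x axis) for Cxcl12 (1417574_at), Cxcr4 and Ackr3 and for the means of 12 tissue marker lists, with single knockout in grey, double knockout in red and 1 symbol per replicate. Double knockout replicate 1 lies far from the other arrays in most lists, from -4.56 to 2.84. Cxcl12 lies at -0.71, -0.69 and -0.91 in double knockout replicates 1 to 3.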

How the data were processed

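The deposited log2 values cover 45101 probe sets on 6 single-colour Affymetrix arrays and were made by the authors with RMA (submitters' processing notes). This method subtracts background, brings arrays to a common distribution and summarises probes, and it compresses differences near background. The log2 scale was taken from the values (2.64 to 15.17). The version, the probe definitions and raw scans were not used here. Trizol and RNeasy served for extraction, per the labels' protocols. Groups and replicate numbers came from the sample titles, and nothing says that replicates were separate litters, so p-values reflect only the spread of these samples, possibly technical.

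Of the probe sets, 34945 had 1 gene symbol in the platform annotation, 932 had several, 9160 had none and 64 were controls. Only the first were used. Each of 18193 genes was represented by its probe set of highest mean. Groups were compared with limma 3.58.1 in R 4.3.3 (lmFit, eBayes, two-sided, Benjamini-Hochberg over all genes, threshold 0.05). The scripts were tested on simulated data. The members, lists and tests were chosen with earlier results of these data known. Named were the pair and Ackr3, from the lists around the pair the 3 genes of smallest unadjusted p plus genes of direct steps of the pathway (Rac1, Cdc42, Foxc1 and Foxc2 were added after their values were seen), and the 5 genes most like each member. Tissue marker lists are given by their means, with members named, after their values were seen, where an overlap rests on them or to describe the mesenchyme and decidua lists. Alternatives were the replicate block, trend and robust moderation, no dim genes, all probe sets, mean of probe sets, median centring, a repeated quantile normalization, weights for arrays, a threshold of 0.1 and leaving out each array.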

Additional observations from a re-analysis of the deposited data

How the results depend on the processing

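The Cxcl12 difference was -0.77 in the main analysis and below 0 in every alternative, but most of these could not change its sign. The replicate block, trend and robust moderation, removal of dim genes and use of all probe sets leave this mean difference unchanged by construction. As the groups did not overlap, leaving out 1 array could not reverse it. The farthest alternative was -0.46, with the mean of the 3 Cxcl12 probe sets, of which 1 was dim. The others ran from -0.86 to -0.70. Cxcr4 ran from -0.12 to 0.22, within its replicate spread. With the replicate number as a block the differences were -0.77 and 0.044, as without it, and 1 gene was called. Deviations of samples with the same number correlated at 0.094, -0.037 and -0.13. Those of samples with different numbers ran from -0.15 to 0.28, so these values cannot show whether equal numbers mark shared litters. The count of genes called, 1 in the main analysis (Fzd2), was 2 with all probe sets (both of Fzd2), 0 with the mean of probe sets, and 0 to 1 without any 1 array (0 without single knockout replicate 1, 2 or 3 or double knockout replicate 3). No gene of the 4 lists around the pair was called by limma in any of the 14 alternatives run on them. All had 3 arrays or fewer per group, and dim probe sets limit what can be seen.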
